A study of Mus musculus with 4 samples.

Results

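The cells described here are the day 4 gastruloid cells that held both Sox2 and posterior Hox transcripts. They were chosen by transcript counts: a cell of the day 4 library with 2000 or more UMIs (unique molecular identifiers, each marking 1 captured RNA molecule) and a mitochondrial share under 20% was a member when it held 2 or more Sox2 UMIs and 3 or more UMIs of Hoxc8, Hoxc9, Hoxb9 and Hoxa9 summed. Of 7202 kept day 4 cells the rule took 2.15% (95% exact Clopper-Pearson interval 1.83 to 2.51) and left 7047 as the other cells, and the whole series had 29190 kept cells. Gastruloids are aggregates of mouse embryonic stem cells that elongate and form derivatives of all germ layers in culture. Those of this study came from the wild type Zx1 line, received a pulse of the Wnt agonist CHIR99021 before day 4, and had bFGF, VEGF and ascorbic acid in the medium from day 4, at days 5 and 6 but no longer at day 11. At each of days 4, 5, 6 and 11 gastruloids were pooled into 1 single-cell 3′ RNA library, so members and other cells shared genotype, medium and library. With no replicate library there is no test, and every interval below covers counting error only.

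Neuromesodermal progenitors are cells of the tail end of the embryo that can give rise to both spinal cord and trunk mesoderm. They are known for holding the neural and pluripotency factor Sox2 together with the T-box factor T (Brachyury), under Wnt and FGF signals that also switch on Cdx genes and then the posterior Hox genes. Nkx1-2, a homeobox factor of the caudal epiblast, and Fgf8, Fgf17 and Wnt3a, secreted ligands of the same region, are further genes associated with them.

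The member cells resembled neuromesodermal cells in the genes the rule did not count. T was found in 120 of them, or 77.4% (70.0 to 83.7), against 24.7% of the 7047 other day 4 cells, and stood at 148.6 against 35.9 CPM (the UMIs of a gene per 1000000 UMIs, summed over the cells of a set). Nkx1-2 was 12.03-fold higher, Fgf17 19.7-fold, Hes3 21.2-fold and Epha5 22.1-fold higher than in the other cells. Cells with posterior Hox but no Sox2 shared much of this. Against them 5 of 20 counted neuromesodermal genes were at least 2-fold higher, beside 2.37% of all counted genes, with a median ratio of 1.70. Of 24 neural genes 12 were counted. Against all other cells 8 of these were at least 2-fold higher, beside 2.64% of all counted genes. A neural or neuromesodermal gene scarce in the other cells was counted only where it was high in the members. Of 19 lateral and cardiac mesoderm genes 18 were at least 2-fold lower than in all other cells, beside 2.50%. Against cells with Sox2 but no posterior Hox 4 of 18 were lower, beside 4.40%. Against cells with posterior Hox but no Sox2 8 of 17 were lower, beside 0.934%. Within the members Fgf8 and Wnt3a were highest where T was highest, while Zic1 and Hoxc10 were highest where T was not found.

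The promoter windows of Sp5 and T, both known Wnt targets, and of Nkx1-2 are shown because they hold 5, 1 and 0 matches of the Wnt response motif, and Sp5 was picked as the gene of the neuromesodermal list with the most matches. Each window is RefSeq sequence of build GRCm38.p6, the build called mm10 in the submitters' notes, from 250 bases before to 50 bases after the annotated start, read 5′ to 3′ along the gene. Capitals mark CTTTGA or CTTTGT on either strand, the letters of the TCF/LEF core through which Wnt signals act; CTTTGT also holds letters shared with the SOX motif. The windows lie at chr2:70474673-70474972 for Sp5 (plus strand), chr17:8434173-8434472 for T (plus strand) and chr7:132599588-132599887 for Nkx1-2 (minus strand).
Sp5: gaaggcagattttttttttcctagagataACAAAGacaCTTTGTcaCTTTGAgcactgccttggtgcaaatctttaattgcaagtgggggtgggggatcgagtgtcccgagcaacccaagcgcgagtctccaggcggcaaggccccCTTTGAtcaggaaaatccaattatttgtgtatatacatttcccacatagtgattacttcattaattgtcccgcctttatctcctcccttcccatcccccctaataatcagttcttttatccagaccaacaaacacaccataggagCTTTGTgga
T: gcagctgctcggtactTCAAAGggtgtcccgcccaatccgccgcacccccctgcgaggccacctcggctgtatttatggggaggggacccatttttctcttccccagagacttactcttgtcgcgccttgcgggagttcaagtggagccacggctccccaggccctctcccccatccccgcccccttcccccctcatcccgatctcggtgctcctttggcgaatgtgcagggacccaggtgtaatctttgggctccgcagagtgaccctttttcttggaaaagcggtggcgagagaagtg
Nkx1-2: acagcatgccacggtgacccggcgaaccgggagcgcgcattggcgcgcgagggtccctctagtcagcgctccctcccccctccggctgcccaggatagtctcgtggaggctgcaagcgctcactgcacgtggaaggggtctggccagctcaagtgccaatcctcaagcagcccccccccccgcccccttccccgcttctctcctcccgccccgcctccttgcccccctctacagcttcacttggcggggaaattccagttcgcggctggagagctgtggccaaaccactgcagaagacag
Sp5 held 5 matches, at offsets -221, -212, -204, -104 and 41 from the start, and T held 1, at offset -234. Nkx1-2 held none. Of 32851 windows in the table, 31.2% held at least 1 match and 12 windows, or 0.0365%, held 5 or more. Of the 21 genes on the neuromesodermal list, 13 had a window and 5 of these (38.5%) held a match in any window, beside 34.5% of all genes with a window, so the list as a whole held the motif about as often as other genes. No binding was measured.

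The values of the rule are a description of how the members were chosen. Sox2 ranged from 2 to 24 UMIs per member with a median of 4, and the posterior Hox sum from 3 to 71 UMIs with a median of 10. Hoxb9 was found in 94.8% of members, Hoxc8 in 80.6%, Hoxa9 in 72.3% and Hoxc9 in 67.7%. Just inside the limits lay 47 cells with Sox2 at 2 UMIs and 12 with a Hox sum of 3. Just outside lay 76 cells with 1 Sox2 UMI and a Hox sum of 3 or more, and 19 with enough Sox2 but a Hox sum of 2. The first of these outside groups had 158.2 CPM of T, 39.0 CPM of Nkx1-2 and 210.4 CPM of Cdx2, beside 162.0, 39.5 and 195.1 CPM in the 47 cells with Sox2 at its limit. The cells on either side of the Sox2 limit thus had nearly the same levels of these genes. At the Hox limit the 12 cells inside had 213.5 CPM of T and 66.0 CPM of Nkx1-2, and the 19 outside, with a median of 52811 UMIs, had 149.1 and 17.5 CPM, while Cdx2 was at 112.8 and 116.2 CPM.

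**Figure D1:**
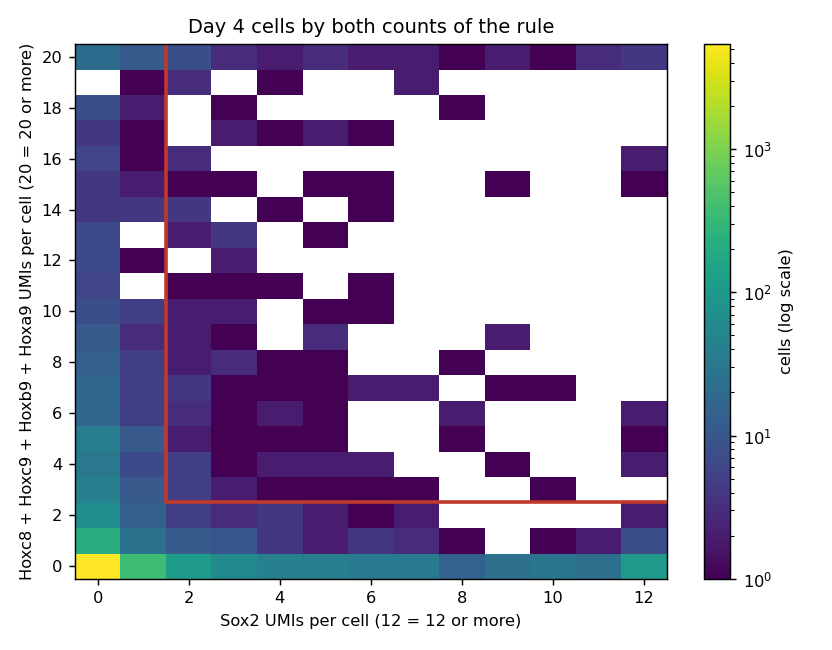
Day 4 cells by Sox2 UMIs (x axis, 12 standing for 12 or more) and summed Hoxc8, Hoxc9, Hoxb9 and Hoxa9 UMIs (y axis, 20 standing for 20 or more), with colour for the number of cells on a log scale and white for none. The red line encloses the members; most other cells lie at 0 on both axes, and many Sox2 cells lie on the bottom row.

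The members were deeper than the rest of the library, and some carried marks of mixed cells. They held 27383 UMIs at the median (10421 to 140635) and the other cells 25283, and 23.2% of them against 12.9% exceeded 2 times the library median. A doublet score, the share of simulated cell pairs among a cell's neighbours, placed 23 members (14.8%) in the top 8% of the library, against 7.85% of the other cells. The main counts and shares are given with and without these cells below, and the part of mixed cells in the other values was not tested. The mitochondrial share (median 2.88% against 2.29%) and the share of ribosomal protein transcripts (33.7% against 34.4%) were close in both sets. The day 4 library shared 5 to 18 of its 7324 cell barcodes with each other library, and 1 member barcode also occurred at day 6.

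In all, 9091 genes other than the rule genes had a mean of at least 5 CPM over both sets. Of these, 240 (2.64%) were at least 2-fold higher in the members than in the other cells and 227 (2.50%) at least 2-fold lower. The median ratio over all 9091 genes was 0.998. Of the 21 genes on the neuromesodermal list 20 were among them, and 16 were at least 2-fold higher and 0 lower, with a median ratio of 4.15. Hes3, Wnt3a, Cdx4 and Fgf17 stood at 0.70 to 2.85 CPM in the other cells. They were counted only because they were high in the members, so they could only be called higher. The 16 became 18 without the 8% highest doublet scores and 19 without the cells over 2 times the median depth.

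T itself had 0 to 38 UMIs per member with a median of 3. Its ratio to the other cells was 4.14 (95% conditional binomial interval 3.86 to 4.44). Since deeper cells show more genes, all cells were also thinned to 10000 UMIs. T was then found in 56.1% of members (47.9 to 64.1), in 15.2% of the other cells, in 23.9% of 522 cells with Sox2 but no UMI of the 4 posterior Hox genes, and in 31.8% of 245 cells with posterior Hox but no Sox2 UMI. Cells with 5 or more UMIs of Hand1, a lateral and cardiac mesoderm factor, gave 6.80%, and cells with both endoderm factors Sox17 and Foxa2 at 4 or more UMIs in sum gave 17.7%. The interval of the members lay above the value of each of these sets. Without the highest doublet scores the thinned share of members was 59.1%, and without the deepest cells 59.7%.

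The transcription factors associated with T at the tail end were present in most members. Nkx1-2 had 0 to 11 UMIs per cell with a median of 1, was found in 104 members (67.1%, 59.1 to 74.4) against 7.55% of the other cells, and stood at 47.8 against 3.97 CPM. Cdx2, a caudal homeobox factor that acts upstream of posterior Hox genes, had 0 to 28 UMIs with a median of 7, was found in 96.8% of members and stood at 199.6 against 46.7 CPM. Its relative Cdx1 stood at 85.9 against 12.9 CPM. Cdx4, the third member of the family, stood at 22.9 against 2.01 CPM but was found in only 23.2% of members. T, Nkx1-2 and Cdx2 were found together in 82 members (52.9%, 44.7 to 61.0), against 4.21% of the other cells. A majority of the members thus held all 3 factors at once. The zinc finger factors Sp5 and Sp8, known Wnt targets, stood at 84.2 and 29.8 CPM, 3.05-fold and 5.68-fold higher. Hes3, a repressor of neural differentiation, was found in 32.3% of members against 1.32% of the other cells, and Gbx2, a homeobox factor of the posterior neural plate, was 4.15-fold higher.

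Secreted ligands and their partners followed. Fgf8 had 0 to 35 UMIs per member with a median of 7 and stood at 229.5 against 84.4 CPM, a ratio of 2.72 (2.57 to 2.88). Fgf17 was found in 58.7% of members against 4.47% of the other cells and stood at 56.1 against 2.85 CPM. Wnt3a stood at 15.2 against 1.58 CPM and was found in 35.5% of members. The Wnt ligands Wnt8a and Wnt5b were 4.05-fold and 3.85-fold higher, and Rspo3, which strengthens Wnt signals, was 2.67-fold higher. Epha5, an ephrin receptor, had the highest ratio of the list, at 53.0 against 2.40 CPM. Other genes of the list did not pass 2-fold. Cyp26a1, the enzyme that breaks down retinoic acid at the tail end, stood at 32.5 against 44.1 CPM. Evx1, Fst and Greb1 had ratios of 1.73, 1.81 and 1.96, and Oc90 had no UMI in a member.

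Of the 24 genes on the neural list 12 had at least 5 CPM on average, and 8 of those were at least 2-fold higher and 0 lower, with a median ratio of 4.08. Of the 4 that did not pass, Zic2, Irx3 and Irx5 were at ratios of 1.78, 1.58 and 1.44, and 12 genes were too low to be counted. With no filter on low values 15 of 23 neural genes were at least 2-fold higher, beside 2146 of 22546 genes. Sox3, a close relative of Sox2, was found in 76 members (49.0%) against 7.38% of the other cells and stood at 23.9 against 3.21 CPM. Foxb1, a forkhead factor of the neural plate, stood at 64.0 against 5.79 CPM. Pax3, a paired box factor of the dorsal neural tube and of somites, was 11.0-fold higher, the Notch target Hes5 13.1-fold, and the adhesion molecule Ncam1 4.16-fold. Sox1, which marks cells committed to neural fate, was found in 17 members (11.0%, 6.52 to 16.98) and in 0.128% of the other cells. Tubb3, a tubulin of neurons, was at 2.88 against 2.10 CPM, and Olig2, a ventral spinal cord factor, had no UMI in a member. Of the 11 genes on the anterior neural list only Otx2, a forebrain and midbrain factor, had enough UMIs to be counted, and it was lower at 3.90 against 11.1 CPM. The other 10 genes of that list were too low to be called in either direction.

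Presomitic genes were mixed. Of 17 on the list 9 had enough UMIs, with 3 higher, 1 lower and a median ratio of 1.22. Tbx6, the factor that turns progenitors towards paraxial mesoderm, stood at 7.96 against 6.08 CPM and was found in 27 members (17.4%). It was lower than in the posterior Hox cells without Sox2, where it stood at 25.4 CPM. Msgn1, another factor of that step, had 10 UMIs in all members together. Hes7, a clock gene of the presomitic mesoderm, was at 51.7 against 6.83 CPM and Dll1, a Notch ligand, at 18.3 against 5.34 CPM. Aldh1a2, the enzyme that makes retinoic acid in somites, was lower at 11.7 against 49.5 CPM. No member held a UMI of both Sox1 and Tbx6, genes with only 26 and 47 UMIs over all members, so cells that express both could be missed at this depth.

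**Figure D2:**
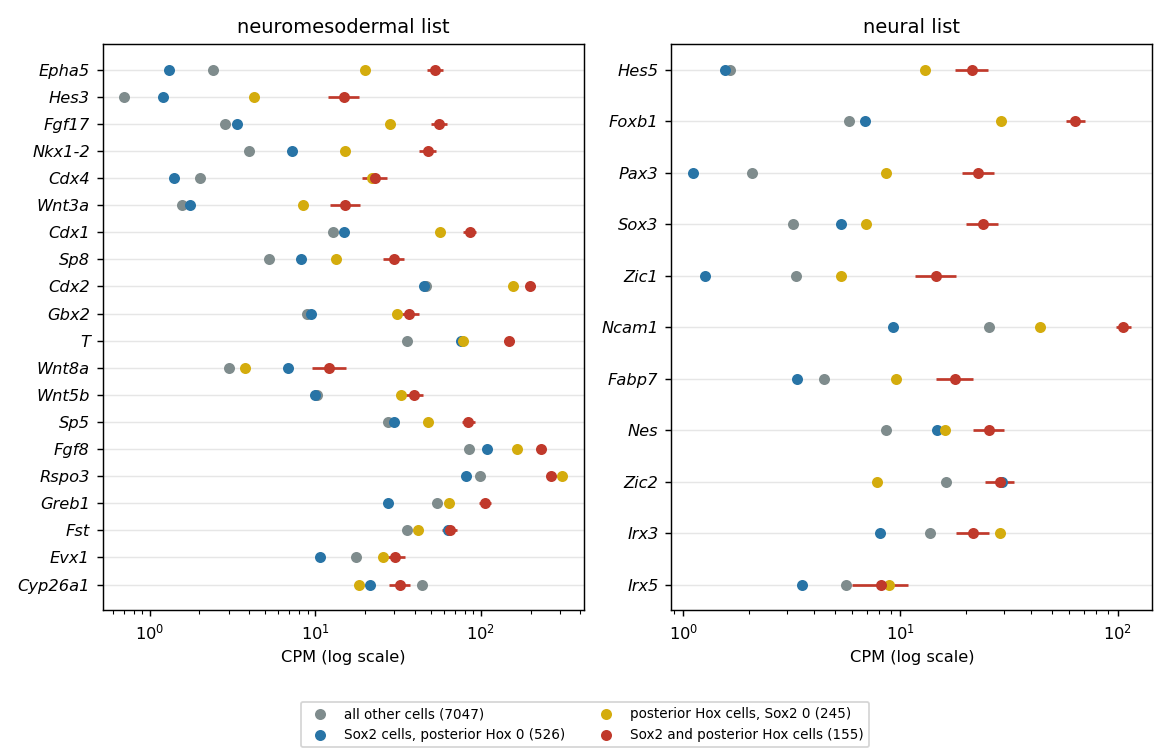
Levels of neuromesodermal and neural list genes with at least 5 CPM on average (CPM, log scale) in the member cells (red, with 95% Poisson intervals), the posterior Hox cells without Sox2 (yellow), the Sox2 cells without posterior Hox (blue) and all other cells (grey). Genes are ordered by the ratio of members to other cells; T is at 148.6 CPM in members and 35.9 CPM in other cells, and Cyp26a1 at the bottom is higher in the other cells.

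The pathway lists below stand beside 2.64% of all counted genes higher and 2.50% lower than in the other cells. Genes scarce in the other cells were again counted only where they were high in the members. Of 27 Wnt pathway genes 24 were counted, with 9 higher and 3 lower. Beside the ligands above, the receptor Fzd10 stood at 76.4 against 14.1 CPM, and Notum and Sfrp2, secreted Wnt inhibitors, were 5.87-fold and 3.14-fold higher. The inhibitor Dkk1 was lower at 11.7 against 30.2 CPM, and Axin2, a widely used Wnt target, had a ratio of 1.39. Of 20 FGF pathway genes 16 were counted, with 7 higher and 1 lower. These included the FGF response genes Etv4 (54.9 against 16.3 CPM), Spry4 (14.4 against 4.35 CPM) and Dusp6 (37.4 against 13.9 CPM). The receptor Fgfr1 was near level at 65.9 against 69.6 CPM. In the retinoic acid list of 15 genes 9 were counted, with Crabp2, a carrier of retinoic acid, at 151.1 against 22.7 CPM and the receptor Rarg at 26.8 against 9.90 CPM the 2 that were higher. In the Notch list of 16 genes, 12 were counted, with 5 higher and 0 lower. Among 20 BMP and Nodal genes 4 were higher and 5 lower. The Nodal antagonists Lefty1 and Lefty2 were 6.69-fold and 2.70-fold higher, Gdf11, a ligand of the trunk to tail transition, was 3.81-fold higher, and Bmp4 was lower at 15.2 against 59.6 CPM. All these lists differed less from the 245 posterior Hox cells without Sox2. Against those, 2 of 24 Wnt, 0 of 16 FGF and 1 of 12 Notch genes were at least 2-fold higher and none lower. Of all genes counted there, 2.37% were higher and 0.934% lower. Of 10 retinoic acid genes 0 were higher and 2 lower, and of 17 BMP and Nodal genes 2 were higher and 0 lower.

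Mesoderm of the lateral plate and heart was the list with the lowest median ratio of those with more than 2 counted genes. All 19 genes of the list were counted and 18 were at least 2-fold lower, with a median ratio of 0.227. Hand1 was found in 27.7% of members against 77.3% of the other cells and stood at 42.0 against 251.6 CPM. Kdr, the VEGF receptor of cardiovascular progenitors, was at 7.62 against 54.7 CPM and the zinc finger factor Gata6 at 13.2 against 80.2 CPM. Msx1, a homeobox target of BMP, was the exception with 187.4 against 182.9 CPM. Of 12 streak genes 10 were counted, with 8 lower and 1 higher. The 8 were 5 when the Sox2 limit was 1 UMI and also when 5 CPM was added to both sets. Eomes, an early streak factor, stood at 9.32 against 57.2 CPM and Mesp1, a factor of nascent mesoderm, at 48.8 against 167.9 CPM. In the adhesion list of 18 genes, 17 were counted, 0 were higher and 5 lower, among them Fn1 (fibronectin) at 133.2 against 367.2 CPM and Snai1, a repressor of the epithelial state, at 14.6 against 35.3 CPM. The 18 lower lateral mesoderm genes were 18 also without the highest doublet scores and without the deepest cells. Hand1 cells made up 49.7% of the library. Against the 526 Sox2 cells without posterior Hox, 4 of 18 lateral genes were lower and 1 higher, with a median ratio of 0.649. Of 10 streak genes 3 were lower there, beside 4.40% of all counted genes. The low levels were thus in part shared with those cells.

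Outside the lists, the genes with the highest ratios among those with at least 20 CPM in the members were Hoxb5os and Hoxaas3, at 14.2-fold and 12.6-fold. Both are annotated antisense to Hox genes, and whether strand was used in counting is not given in the sources used here, so their values are uncertain. Both were level with the posterior Hox cells without Sox2, at ratios of 1.07 and 1.05. Ptn (pleiotrophin, a secreted growth factor) stood at 147.6 against 12.2 CPM and was found in 72.9% of members. Sema3a, a repulsive guidance signal, was at 23.9 against 2.11 CPM and Sema6a, a transmembrane relative, at 75.2 against 12.7 CPM. Against the posterior Hox cells without Sox2 Ptn was 3.16-fold and Sema3a 4.37-fold higher. Ptprz1, a receptor of pleiotrophin, was 3.68-fold higher than in all other cells but at a ratio of 0.962 to the posterior Hox cells without Sox2. Celsr1, a planar polarity cadherin, was 4.15-fold higher than in all other cells, and the ephrin receptors Epha2 and Epha1 4.94-fold and 4.03-fold. The genes of lowest ratio with at least 20 CPM in the other cells were Asb4 at 11.2 against 116.6 CPM, Hand2os1 at 2.54 against 22.7 CPM and Stard8 at 5.59 against 47.7 CPM. Flt1 and Nrp1, receptors of VEGF, were at ratios of 0.173 and 0.192. Car4, Capn6 and Dusp9 were at 0.148, 0.157 and 0.170. To the posterior Hox cells without Sox2, Flt1 and Car4 were near level, at ratios of 1.05 and 0.919. Capn6, Nrp1 and Dusp9 were at 0.639, 0.619 and 0.493 there. Against all other cells, the 25 highest genes outside the lists reached down to a ratio of 3.49 and the 15 lowest up to 0.241.

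The Hox genes that the rule did not use showed how far along the clusters the members reached. Hox genes are numbered by paralog group, and higher numbers are switched on later and closer to the tail. Of 39 Hox genes 4 belonged to the rule, 22 of the others were counted and 13 were too low. Of the 22, 16 were at least 2-fold higher and 0 lower, beside 2.64% and 2.50% of all counted genes. Genes such as Hoxa10, Hoxc6, Hoxc10 and Hoxd11, at 0.14 to 2.27 CPM in the other cells, could only be called higher. Against the posterior Hox cells without Sox2, 3 of 24 were higher and 1 lower, beside 2.37% and 0.934%. Summed over the genes of a group, groups 1 and 2 were nearly level between members and other cells, at 100.5 against 93.7 CPM and 99.1 against 83.1 CPM. Groups 3 and 4 were 3.86-fold and 4.35-fold higher, and group 5 was 2.42-fold higher. Groups 6 and 7 were 9.64-fold and 14.04-fold higher, among them Hoxc6 at 58.5 against 2.27 CPM and Hoxa7 at 59.0 against 3.25 CPM. The ratio was 49.6 for group 10, 82.1 for group 11 and 272 for group 12, and 6.05 for group 13. Groups 11 and 12 rested on few UMIs in the other cells. Hoxd11 held 113 UMIs in the members and 32 in the other cells. Hoxc12 held 29 and 3, with a ratio interval of 112 to 1860. Groups 10 to 12 were thus far more unequal than groups 1 to 7, on a scale where groups 8 and 9 were set by the rule itself.

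Genes of groups 10 to 12 were found in a minority of the members. Hoxa10 was found in 49 members (31.6%) at 17.4 CPM, and Hoxc10 in 35 (22.6%) at 35.1 CPM with up to 27 UMIs in 1 cell. Hoxd11 was found in 23 members with up to 23 UMIs in 1 cell, and stood at 19.1 against 0.14 CPM in the other cells. Hoxc12 was found in 10 members. These genes were thus in few members but at many UMIs in some of them. The highest paralog group with any UMI was group 9 in 86 members (55.5%), group 10 in 35 (22.6%), group 11 in 15 (9.68%), group 12 in 1 and group 13 in 18 (11.6%). In the posterior Hox cells without Sox2 it was group 10 in 13.9% and group 11 in 2.04%.

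**Figure D3:**
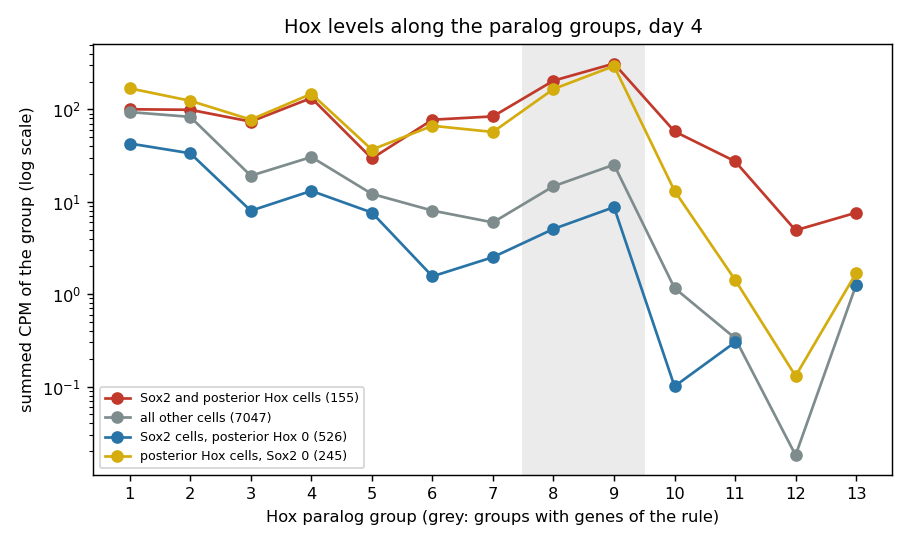
Summed level of each Hox paralog group (CPM, log scale) in the member cells and 3 other sets of day 4 cells, with grey for the groups that hold genes of the rule. Members (red) and posterior Hox cells without Sox2 (yellow) lie within 2-fold of each other up to group 9 and are further apart at groups 10 to 13; a set at 0 has no point.

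The members were also set beside both partial sets, cells with only Sox2 or only posterior Hox UMIs. Both sets differed from the members in many other genes too. Whether a difference goes with Sox2 or with posterior Hox itself was not tested. The Sox2 cells without posterior Hox (526 cells) held Pou5f1 (Oct4), a factor of pluripotency, in 91.4%. Against them, 266 of 9153 genes (2.91%) were at least 2-fold higher in the members and 403 (4.40%) lower. Of the 20 pluripotency genes 19 were counted, with 16 lower in the members and 0 higher and a median ratio of 0.239. Pou5f1 was at 113.0 CPM in the members and 330 CPM in those cells, and Dppa5a at 543.1 and 2469 CPM. Of the neuromesodermal list 16 genes were at least 2-fold higher in the members, T just under at 1.96-fold (1.80 to 2.13). All 22 counted Hox genes were higher too, but these sets were chosen by having or lacking posterior Hox UMIs, so their Hox levels describe the choice.

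Against the 245 posterior Hox cells without Sox2, 213 of 8996 genes (2.37%) were at least 2-fold higher and 84 (0.934%) lower in the members. Neuromesodermal genes differed less here, with 5 of 20 higher and a median ratio of 1.70. Nkx1-2 was 3.16-fold higher (2.54 to 3.96), Hes3 3.47-fold and Epha5 2.66-fold, while Cdx2 was 1.28-fold and Cdx4 1.04-fold. Of the neural genes 7 were higher, including Sox3 at 3.46-fold and Foxb1 at 2.21-fold. Hoxc10 was 7.09-fold higher (5.00 to 10.3) and Hoxd11 29.4-fold (12.2 to 92.3). Hoxc10, Hoxd11 and Hoxa10 (2.31-fold), but not Hoxc6 (1.80-fold) and Hoxa7 (1.71-fold), thus passed 2-fold between posterior Hox cells with and without Sox2. Pluripotency genes were also higher, 10 of 16, with Pou5f1 at 4.45-fold, Nanog at 14.1 against 1.17 CPM, and the epithelial adhesion gene Epcam at 5.50-fold. Outside the lists Tdh, an enzyme of threonine breakdown used by embryonic stem cells, was at 38.8 against 0.26 CPM. Tdh was found in only 21 members (13.5%), with up to 36 UMIs in 1 cell. It stood at 191.5 CPM in the Sox2 cells without posterior Hox. Of 9 presomitic genes 4 were lower and 1 higher than in the posterior Hox cells without Sox2, and of 17 lateral genes 8 were lower.

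Beside these pluripotency values, the members differed among themselves. Pou5f1 was found in 53.5% of members. The 44 members with 5 or more Pou5f1 UMIs held 43903 UMIs at the median, the rest 25641, and 36.4% of them against 6.31% had a top doublet score. The 18 members with 5 or more Hand1 UMIs had a median depth of 71010 UMIs, and 61.1% of them had a top doublet score. Depth and doublet score thus moved with both genes. The part of mixed cells in these levels was not tested.

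The members lay together also by genes that the rule did not use. Cells were placed by 2000 variable genes, with Sox2 and the 39 Hox genes left out. Other transcripts of the Hox clusters, such as Hoxb5os and Hoxaas3, were not left out, and their part in the neighbours was not tested. Of the 20 nearest neighbours of a member, 41.7% were members, against 2.15% of all kept cells, and the count ranged from 0 to 19 with a median of 9. Posterior Hox cells without Sox2 made up 14.8% of the neighbours and Sox2 cells without posterior Hox 8.77%, while Hand1 cells made up 12.2% of them and 49.7% of the library. A core of 109 members had 5 or more member neighbours, and 46 had 0 to 4, of which 13 had none. The levels of these groups describe the split, since the neighbours were found from the same variable genes. The core had 61.9 CPM of Nkx1-2, 78.5 of Fgf17, 20.9 of Hes3 and 32.7 of Sox3, and the other 46 cells had 23.5, 17.5, 4.60 and 8.75 CPM. T was at 169.2 and 113.2 CPM. The 46 scattered cells instead had more Pou5f1 (195.6 against 64.9 CPM), Hand1 (84.2 against 17.4 CPM) and Mesp1 (87.5 against 26.3 CPM). They were deeper, with a median of 37837 against 25771 UMIs, and 26.1% of them against 10.1% had a top doublet score.

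T divided the members along a second line. T was not found in 35 members, was at 1 to 4 UMIs in 55 and at 5 or more in 65. From the cells without T to those with the most, Fgf8 went from 35.8 to 147.2 to 371.1 CPM, and Wnt3a from 0 to 8.58 to 26.5 CPM. Cdx1 went from 37.6 to 71.0 to 116.8 CPM, and Sp5 from 33.0 to 67.2 to 117.9 CPM. These genes of Wnt and FGF signalling thus ran with T. Zic1, a zinc finger factor of the dorsal neural tube, went the other way, from 39.4 to 15.2 to 4.05 CPM. Sox3 went from 37.6 to 24.8 to 17.7 CPM, Sox1 from 10.1 to 5.72 to 1.11 CPM, and Hoxc10 from 79.8 to 33.4 to 18.4 CPM. Other neural genes did not share this order: Hes5 was at 11.9, 27.2 and 20.6 CPM, Irx3 at 22.0, 29.1 and 15.5 CPM and Pax3 at 29.3, 29.1 and 15.5 CPM. Sox2 was chosen on by a limit in UMIs, which a deeper cell passes at a lower CPM, so its levels in the 3 groups (190.7, 162.5 and 102.5 CPM) are given as a description only. Nkx1-2, at 55.0, 41.9 and 49.4 CPM, and Cdx2, at 189.8, 206.3 and 198.3 CPM, did not follow either direction, and their Poisson intervals overlapped across the 3 groups.

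**Figure D4:**
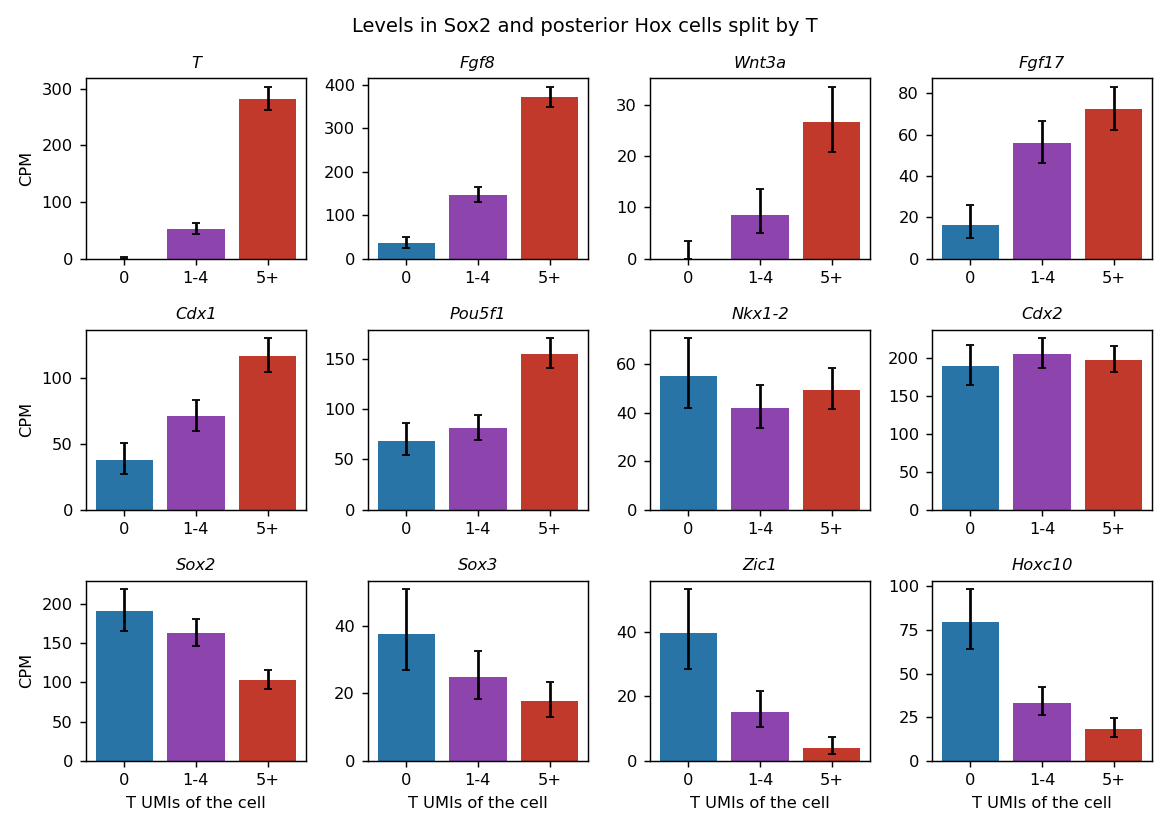
Levels (CPM) of 12 genes in the 35 members without T, the 55 with 1 to 4 T UMIs and the 65 with 5 or more, with 95% Poisson intervals. Fgf8, Wnt3a and Cdx1 are highest in the cells with the most T, Sox3, Zic1 and Hoxc10 in those without T, and the intervals of Nkx1-2 and Cdx2 overlap across the groups. Sox2, a gene of the rule, is drawn as a description.

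Since cells with more UMIs reach 5 T UMIs more easily (median depth 24012, 27235 and 36032 UMIs, top doublet scores in 8.57%, 12.7% and 20%), the groups were also compared after thinning to 10000 UMIs. Fgf8 was then found in 20%, 58.2% and 90.8% of the cells, Wnt3a in 0%, 10.9% and 35.4%, Zic1 in 31.4%, 12.7% and 4.62%, and Hoxc10 in 37.1%, 10.9% and 4.62%. The order was kept in each of these 4 genes. Sox3, in 28.6%, 21.8% and 21.5%, was nearly level once thinned. Splitting the members by the share of T in a cell's UMIs gave the same direction for Fgf8 (35.8, 134.7 and 479 CPM) and Zic1 (39.4, 11.8 and 4.64 CPM), and for Hoxc10 left the cells without T highest (79.8, 23.3 and 27.3 CPM). Sox2 was then at 190.7, 128.1 and 129.4 CPM. Without the highest doublet scores Fgf8 was at 38.2, 185.2 and 508.0 CPM and Zic1 at 48.3, 19.3 and 4.04 CPM. Pou5f1 was at 68.8, 81.5 and 155.2 CPM, and Epcam at 42.2, 47.6 and 126.8 CPM. Without the cells over 2 times the median depth, Pou5f1 in the cells without T was at 5.62 CPM and Epcam at 7.03 CPM, while in those with the most T they were 145.2 and 137.1 CPM. Members with much T thus held these epithelial and pluripotency genes also at usual depth.

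The same rule was applied to the later libraries as a description. It found 82 cells at day 5 (1.11%), 588 at day 6 (10.1%) and 722 at day 11 (8.27%). Depth differed, with median UMIs per cell meeting the rule of 27383, 30268.5, 41389.5 and 15746, so the 4 libraries were also thinned to 5000 UMIs per cell and asked for 1 UMI of each kind. The shares were then 1.27% (1.02 to 1.56), 0.621% (0.453 to 0.830), 5.41% (4.83 to 6.02) and 7.83% (7.26 to 8.43). The cells were fewest at day 5 by both counts, and day 6 and day 11 stood above day 4 by both. Days 5 and 6 had the same medium, while day 11 differed in age, medium and software version at once, which cannot be told apart with 1 library per day.

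The cells under the rule held other genes at the later days. T went from 148.6 CPM at day 4 to 50.6 at day 5, 18.9 at day 6 and 0 at day 11, and Nkx1-2 from 47.8 to 17.1, 4.86 and 0 CPM. Cdx2 was at 199.6, 106.1, 94.96 and 0.19 CPM, and Fgf8 at 229.5, 66.0, 43.4 and 0.19 CPM. These 4 genes were thus highest at day 4 and at or near 0 at day 11. Other genes of the neuromesodermal list went differently: Cdx4 was at 22.9, 2.39, 26.3 and 0 CPM, Sp8 at 29.8, 11.6, 27.5 and 1.44 CPM and Wnt3a at 15.2, 1.03, 2.24 and 3.76 CPM. Pax6, a paired box factor of neural progenitors, was at 1.19, 0, 27.0 and 45.0 CPM, and Hes5 at 21.3, 2.39, 70.7 and 364.6 CPM. Fabp7, a lipid binding protein of radial glia, was at 17.8, 4.45, 126.6 and 1957 CPM, and Tubb3 at 2.88, 1.71, 11.0 and 228.6 CPM. Hoxc10 was at 35.1, 21.6, 172.0 and 189.7 CPM. Cells with Sox2 and posterior Hox thus had the most T and Nkx1-2 at day 4 and the most Pax6, Hes5, Fabp7 and Tubb3 at day 11, and the values do not follow single cells between days.

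**Figure D5:**
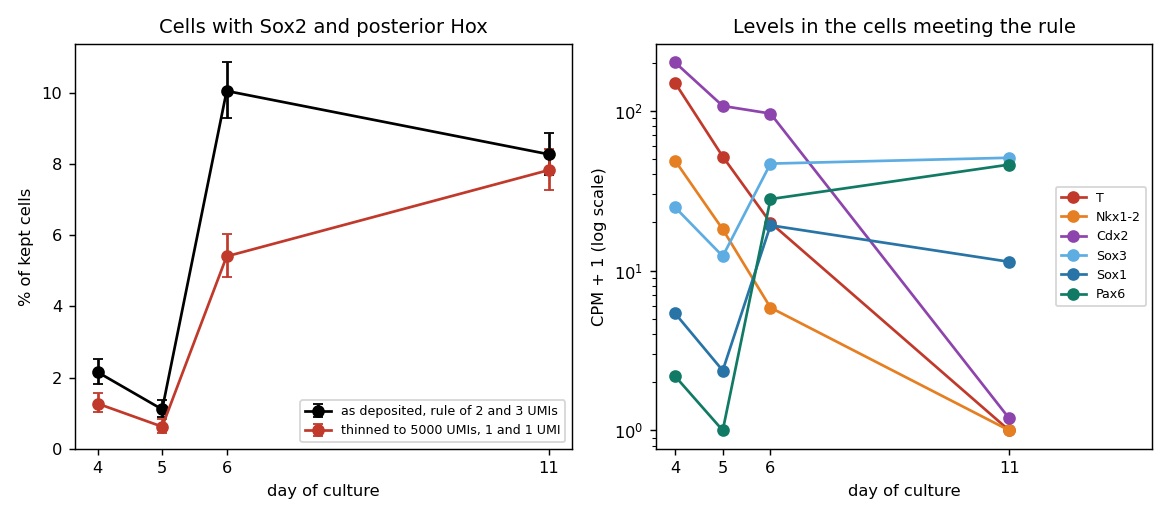
Left, percent of kept cells meeting the rule at each day as deposited (black) and after thinning with 1 UMI of each kind (red), with 95% exact intervals. Right, levels in the cells meeting the rule (CPM plus 1, log scale) of 6 genes; T and Nkx1-2 go from 148.6 and 47.8 CPM at day 4 to 0 at day 11, and Pax6 from 1.19 to 45.0 CPM.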

How the data were processed

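For each of the 4 libraries the authors deposited unnormalized UMI counts as a sparse matrix, holding droplets that their software had called as cells. The headers name Cell Ranger 3.1.0 (days 4, 5 and 6) or 6.0.1 (day 11). The build in the submitters' notes is mm10, and the annotation is not given in the sources used here. The day 4 library held 227398362 UMIs in 7324 cells, of which 122 were left out by the limits on UMIs and mitochondrial share, and the kept cells had a median of 25335 UMIs (2002 to 187456). Libraries of later days held 149169498 to 236714826 UMIs. The labels give no separate replicate of any day.

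The rule gave 155 member cells. From these counts UMIs were summed over each set of cells and expressed as CPM, with exact Poisson intervals. Ratios of CPM have exact conditional binomial intervals and shares have exact Clopper-Pearson intervals, each at the 95% level and for counting error alone. Genes entered a comparison at a mean of 5 CPM over both sets, without mitochondrial and rule genes, and were called at a 2-fold ratio. A gene scarce in the compared cells thus entered only when it was high in the members. The call step was tested on simulated data. Neighbours were the 20 nearest cells in 30 principal components of 2000 variable genes of counts log-normalized to 10000 UMIs. Doublets were scored with 2 simulated pairs per cell and kept in the main values. Named genes were those of 23 lists with 334 genes, all found in the feature table, and, outside the lists, the 25 highest and 15 lowest ratios with at least 20 CPM, leaving out ribosomal protein genes, and the 10 leading genes against each partial set. The values of 1 gene of the neural list are not reported here. Members and lists were chosen with earlier results of these data known, so a list's direction is not independent evidence. Python 3.11.15, scipy 1.17.1, scanpy 1.11.5 and scikit-learn 1.9.0 were used.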

Additional observations from a re-analysis of the deposited data

How the results depend on the processing

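No paired analysis was possible because each day had 1 library. The count of member cells ranged from 108 (Sox2 at 3 or more UMIs) to 231 (Sox2 at 1 or more) over 8 alternatives. The thinned share of members with a T UMI, 56.1%, ranged from 53.2% to 59.7% under those 8. It was 77.4% with no thinning, 42.6% at 5000 UMIs, 71.4% at 20000 UMIs and 35.5% when 2 T UMIs were asked for, against 24.7%, 10.3%, 19.8% and 8.20% of the other cells. The share of neighbours that were members, 41.7%, was 51.3% with Sox2 at 1 or more UMIs and otherwise ranged from 34.5% to 45.0%. The genes at least 2-fold higher, 240, ranged from 218 to 339 when the cells or the summary over cells changed, but were 134 with 5 CPM added to both sets, 76 at a mean of 20 CPM or more and 2146 with no filter on low values. The lower genes, 227, ranged from 192 to 328 and were 121, 81 and 7359 under the same 3 settings. Of 64 named genes past 2-fold in the neuromesodermal and neural lists and outside the lists, none fell under 2-fold in any of 10 alternatives that changed the cells or the summary. The 64 include the 25 highest and 15 lowest ratios outside the lists, which were picked from these data. Those lay at 3.49 or more or at 0.241 or less, so they could hardly fall under 2-fold. Adding 5 CPM was not among the 10. The 1 higher gene of the pluripotency list, Utf1 at a ratio of 2.02, was not called without the highest doublet scores, and up to 6 genes of that list were called under other limits. The 8 lower genes of the streak list were 5 with Sox2 at 1 or more UMIs and 5 with 5 CPM added. These list counts, the split by the share of T and the rule of 1 UMI at all days were chosen after seeing the data. Genes under 5 CPM, Sox1 among them, rest on few UMIs.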

Other observations

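Cells with both Sox2 and T were not limited to the cells with posterior Hox. In the day 4 library 283 cells held 2 or more UMIs of each, or 3.93% of kept cells. Of these, 98 (34.6%) were Sox2 and posterior Hox cells and 149 (52.7%) had no UMI of Hoxc8, Hoxc9, Hoxb9 or Hoxa9. Among the Sox2 and posterior Hox cells themselves 63.2% held 2 or more UMIs of each.

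Genes of the cell cycle did not set the members apart. None of 20 S phase genes and none of 20 genes of G2 and M phase passed 2-fold in either direction, with summed levels of 2152 against 2035 CPM and 2949 against 2886 CPM. Among 13 Sox genes, Sox3 was higher, Sox17 was lower, and Sox4 and Sox11, which are common in early neural and mesodermal cells, were at 122.1 against 150.3 CPM and 229.0 against 208.2 CPM. Of 12 endoderm genes 7 were counted, with 0 higher and 2 lower. Genes of other cell types were scarce: 2 of 9 endothelium genes were counted with 1 lower, 4 of 8 node genes with 1 higher and 1 lower, and 5 of 14 genes of surface ectoderm and neural crest with 1 higher and 1 lower.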
